A study of Rattus norvegicus with 6 samples.

Results

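The 148 circular RNAs (circRNAs) described here were at least 3-fold lower in injured than in normal rat lung and were still detected in both. This holds by the group labels of the scanner arrays, and the authors' deposited table gives the opposite direction. They are 148 of the 14145 circRNAs on the array, or 1.05%. Each had a signal well above background on all 6 arrays, was not among the 300 brightest circRNAs of normal lung, had a mean difference on the log2 scale of -1.585 or lower, and lay lower on every array of injured lung than on any array of normal lung. These measured values chose the circRNAs, so the size and direction of their difference describe the choice and are no separate finding.

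The series compared lungs of normal adult male rats (3 arrays) with lungs of adult male rats with acute respiratory distress syndrome (ARDS, 3 arrays), brought on by lipopolysaccharide, an outer-membrane component of Gram-negative bacteria. The rats are numbered 1 to 6 in the labels, so each array was taken as 1 animal. Strain and the dose, route and time of lipopolysaccharide are not given in the sources used here, nor is any treatment named for the normal rats. All 6 RNA samples were digested with RNase R, which degrades linear RNA, before random-primed labelling with the dye Cy3, so the values are levels of what resisted the enzyme.

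CircRNAs are closed loops made when the splicing machinery joins the end of an exon back to the start of the same or an earlier exon. Having no free ends, they resist exonucleases and tend to outlast the linear transcript of their gene. Some bind microRNAs or proteins, but most have no assigned function. In lipopolysaccharide-injured lung the barrier between blood and air leaks, neutrophils enter and the transcription of many genes shifts, which is the setting in which these loops were measured. The files do not pair the probe numbers with circRNA names, host genes, positions or sequences. Markers of lung cell types could therefore not be read from the circRNA probes, and only 2 of the 148 are called by their number, ASCRPR013687 and ASCRPR000006. In whole lung, fewer cells of a type and less circRNA per cell cannot be told apart.

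ARDS arrays were dimmer as a whole. The 75th percentile of the log2 signal over circRNA probes ran from 7.224 to 7.587 on the normal and from 5.818 to 6.664 on the ARDS arrays. Between 13200 and 13425 circRNAs were well above background on a normal array and between 12179 and 12671 on an ARDS array. A scaled value here is the log2 processed signal minus that 75th percentile, so 25% of the circRNAs of an array lie above 0, and all differences are relative to it. ARDS replicate 3 had a scan of its own. The authors' deposited table runs the other way for these circRNAs, as given further on, and the directions below come from the scanner files. Which of them carries the right group labels was not tested. Every direction below would reverse if the labels of the scanner arrays were exchanged.

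The 148 circRNAs went from the upper to the middle part of the abundance range. Their median scaled value was 0.64, 1.14 and 0.96 on normal replicates 1, 2 and 3, and -1.57, -0.87 and -1.06 on ARDS replicates 1, 2 and 3. The rule fixed in advance that every normal median lay above every ARDS median. Over all 11701 circRNAs detected on all 6 arrays the median lay between -0.95 and -0.92 on each array. The median difference of the 148 was -1.93 on the log2 scale, 3.8-fold lower, against 0.05 for all circRNAs tested. In brightness before scaling, the median of the 148 was 300, 330 and 326 on the normal arrays and 21.3, 55.6 and 27 on the ARDS arrays. ARDS replicate 1 was the dimmest of the 6 for these circRNAs, and ARDS replicate 2 the nearest to normal.

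**Figure D1:**
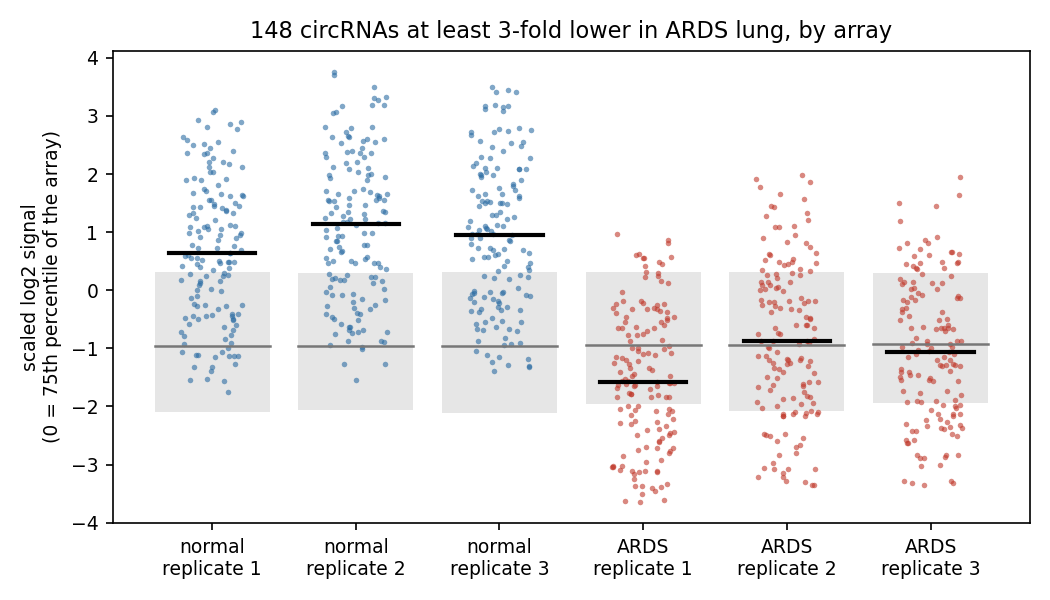
Scaled log2 signal (y axis, 0 is the 75th percentile of the array) of the 148 circRNAs on each of the 6 arrays, normal in blue and ARDS in red. Each point is 1 circRNA and the black bar their median, with the grey band and line giving the quartiles and median of all 11701 circRNAs detected on all arrays. The black bars lie between 0.64 and 1.14 on normal arrays and between -1.57 and -0.87 on ARDS arrays, while the grey lines stay between -0.95 and -0.92.

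Most of the 148 differed by 3-fold to 4-fold, and few by much more. There were 84 from 3-fold to under 4-fold, 50 from 4-fold to under 6-fold, 8 from 6-fold to under 8-fold and 6 at 8-fold or more. The quartiles were 3.28-fold and 4.51-fold, and the largest difference was 10.1-fold. By limma with Benjamini-Hochberg adjustment over all 13247 circRNAs tested, 147 of the 148 passed the threshold of 0.05 as lower in ARDS, against 8.16% of all circRNAs tested. The choice used the same contrast, so nothing is read from that count. Leaving out normal replicate 1 gave 87 and leaving out ARDS replicate 1 gave 91. Without normal replicate 2 or normal replicate 3 it was 0 by limma, although 147 and 148 of them then had an unadjusted p under 0.05, and in both fits none of the 13247 circRNAs passed as lower.

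ASCRPR013687 had the largest difference with this scaling, by 0.01 log2 units over ASCRPR000006. The order of these 2 turned with quantile normalization (-3.49 against -3.66), with normexp background correction (-2.53 against -3.04) and without normal replicate 1 (-3.4 against -3.55), ARDS replicate 1 (-3.09 against -3.14) or ARDS replicate 2 (-3.33 against -3.44). The signal of ASCRPR013687 was 789, 692 and 809 on normal replicates 1 to 3 and 20.3, 44.8 and 35.6 on ARDS replicates 1 to 3. The normal arrays lay close together, and all of them far above the ARDS arrays. After scaling, the normal mean was 2.17 ± 0.12 and the ARDS mean -1.16 ± 0.49 (SD, n = 3 each). The level in ARDS lung was 10.1-fold lower, a log2 difference of -3.33 with an SE of 0.29 (adjusted p = 0.00968 in limma). This circRNA was named for its difference in the same contrast, so the p describes the choice and is no separate test. The same holds for every limma p given here for a single one of the 148. ASCRPR013687 went from percentile 93.5 to percentile 44.2 of the circRNAs detected on all arrays. Its lowest normal value lay 2.7 log2 units above its highest ARDS value, or 6.5-fold, the widest separation among the 148.

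ASCRPR000006 had the highest normal level of the 148 with this scaling, and a difference close to that of ASCRPR013687. Its signal was 1423, 2015 and 1776 on the normal arrays and 50.5, 122 and 62.2 on the ARDS arrays. After scaling, the normal mean was 3.35 ± 0.44 and the ARDS mean 0.03 ± 0.32 (SD, n = 3 each). The level in ARDS lung was 10-fold lower, a log2 difference of -3.32 with an SE of 0.3 (adjusted p = 0.00979 in limma). Although it dropped from percentile 97.4 to percentile 70.7, it remained among the brighter circRNAs of ARDS lung. Without normal replicate 2 or normal replicate 3 neither ASCRPR013687 nor ASCRPR000006 passed (limma adjusted p = 0.063 and 0.0853 for each), with differences from -3.12 to -3.32.

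The next 3 in order of size had similar patterns over the arrays. The 1 ranked 3 by size had scaled values of 1.1, 1.35 and 1.72 on normal and -2.75, -0.87 and -2.14 on ARDS replicates 1 to 3. The 1 ranked 4 had 0.95, 1.23 and 1.61 on normal and -2.77, -1.07 and -2.27 on ARDS replicates. The 1 ranked 5 had 0.92, 1.17 and 1.65 on normal and -2.33, -0.93 and -2.63 on ARDS replicates. In all 3 the normal values stood in the same order, and ARDS replicate 2 was well above the other ARDS arrays. Those ranked 3 and 4 were never more than 0.2 log2 units apart on any array. Those ranked 4 and 5 were up to 0.44 apart and those ranked 3 and 5 up to 0.49. Over all 10878 pairs of the 148 the median of this largest distance was 1.89. Those pairs include circRNAs of unlike level, whereas these 3 had normal means of 1.39, 1.27 and 1.25. Pairs of like level were not compared separately. Whether such circRNAs share a host gene or sequence was not analysed here.

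The ARDS arrays lay closer together in those ranked 6 and 9. The 1 ranked 6, 8.82-fold lower, had 2.35, 3.27 and 3.15 on normal and -0.47, -0.2 and 0.01 on ARDS replicates 1 to 3. The 1 ranked 9, 6.83-fold lower, had 3.11, 3.07 and 3.19 on normal and -0.03, 0.61 and 0.46 on ARDS replicates. Its normal values had an SD of 0.06 (n = 3). All 14 circRNAs that were at least 6-fold lower had groups at least 1.5 log2 units apart. ARDS replicate 1 gave the lowest value for 11 of these 14 and ARDS replicate 2 the highest for 9.

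**Figure D2:**
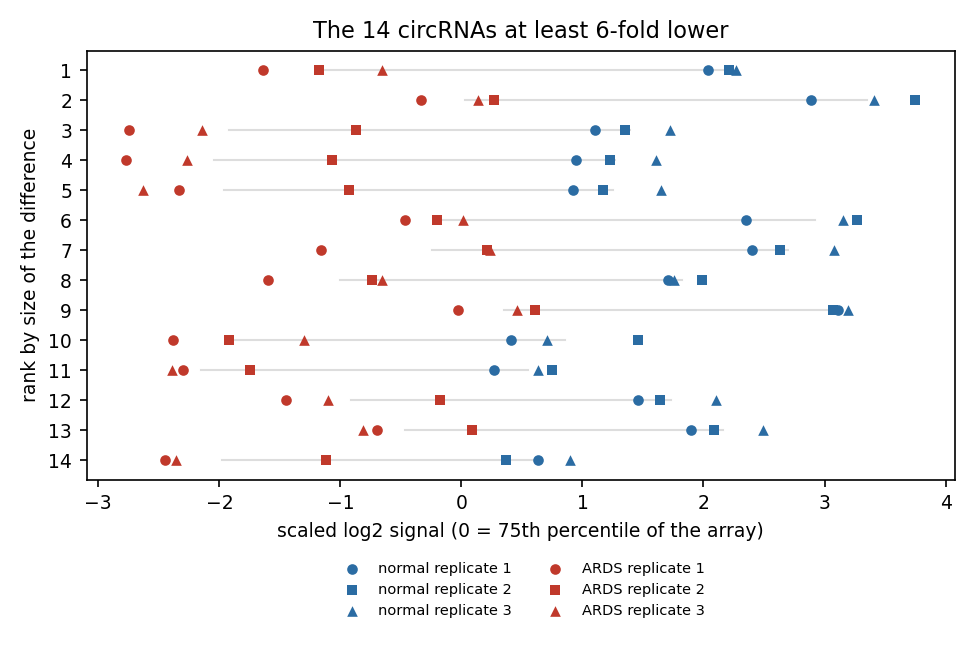
Scaled log2 signal (x axis) on each array for the 14 circRNAs that were at least 6-fold lower, in order of the size of the difference (y axis, 1 is ASCRPR013687 and 2 is ASCRPR000006). Blue symbols are normal and red ARDS arrays, each replicate with its own shape, and the grey line joins the group means. No red symbol reaches a blue one in any line, by choice, and the distance between them is at least 1.5.

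The starting levels were high. In normal lung the 148 lay between percentiles 42.9 and 97.4 of the circRNAs detected on all arrays, with a median at percentile 83.2, and 136 of them were above the middle of that range of circRNAs. In ARDS lung they lay between percentiles 1.62 and 87.7, with a median at percentile 43.1, and 66 were above the middle. The count in the top 10% went from 44 in normal to 0 in ARDS lung, and the count in the lowest 25% from 0 to 42. The rule shapes this, because a dim circRNA cannot be 3-fold lower and still be well above background. The 148 carried 1.13%, 1.92% and 1.67% of all circRNA signal on normal replicates 1 to 3, and 0.12%, 0.296% and 0.309% on ARDS replicates 1 to 3. That is a mean of 1.57% ± 0.404 against 0.242% ± 0.106 (SD, n = 3 each).

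**Figure D3:**
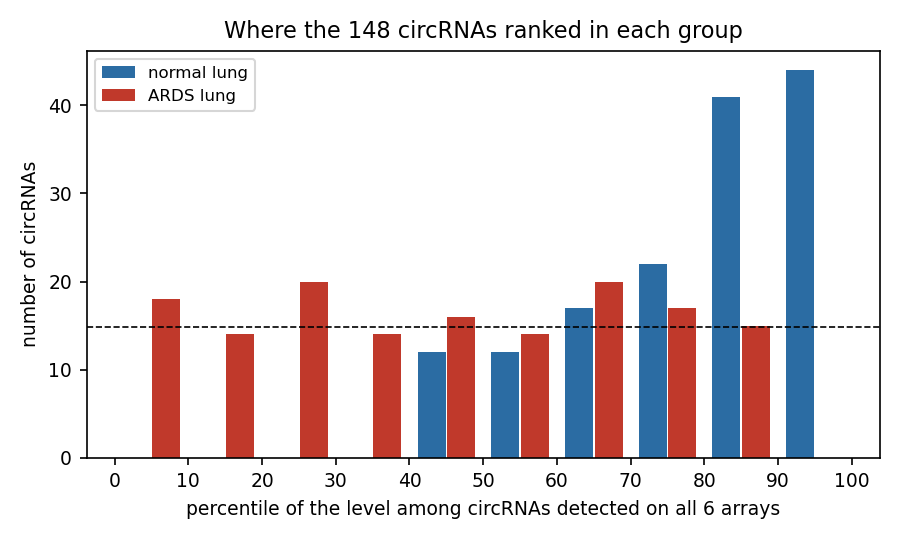
Number of the 148 circRNAs (y axis) by the percentile of their mean level among the 11701 circRNAs detected on all arrays (x axis), in normal lung (blue) and in ARDS lung (red). The dashed line at 14.8 is an even spread over the 10 bins. The top 2 bins hold 41 and 44 in normal lung and 15 and 0 in ARDS lung, and each of the other bins holds 14 to 20 in ARDS lung.

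The largest differences belonged to circRNAs that were abundant in normal lung. The 84 circRNAs under 4-fold had a median scaled value of 0.72 in normal and -1 in ARDS lung. The 50 between 4-fold and 6-fold had medians of 0.79 and -1.4. The 14 at 6-fold or more had medians of 1.78 and -1.08, and all 14 were at percentile 78.7 or above in normal lung. These are descriptions of the chosen circRNAs, for which the difference is part of the choice.

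**Figure D4:**
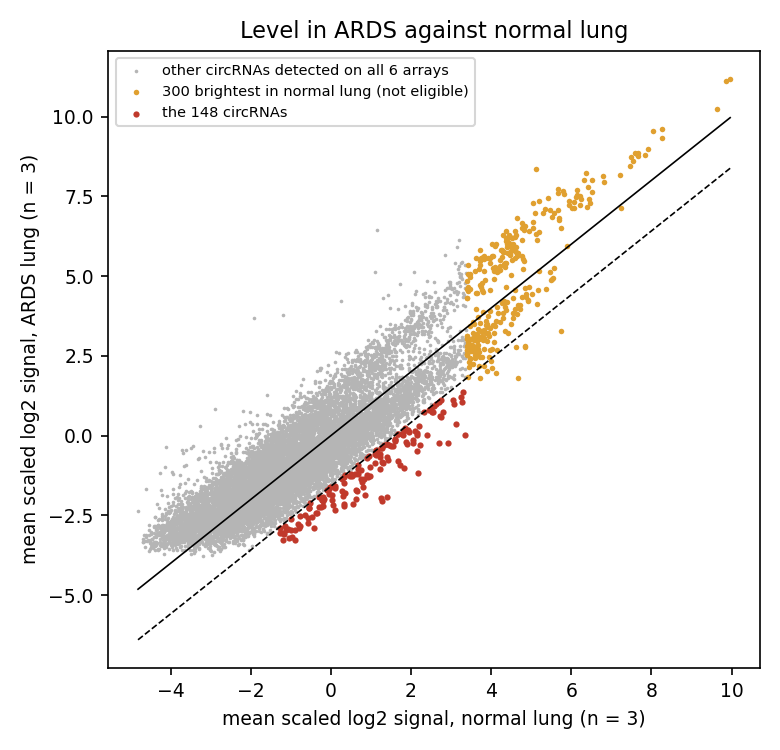
Mean scaled log2 signal in ARDS (y axis) against normal lung (x axis), n = 3 arrays each, for every circRNA detected on all 6 arrays. Red points are the 148, yellow points the 300 brightest circRNAs of normal lung, and grey points all others. The solid line marks equal levels and the dashed line 3-fold lower, below which the red points lie by choice.

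The arrays did not contribute alike. ARDS replicate 1 was the lowest of the ARDS arrays for 111 of the 148 (75%), against 36% of all circRNAs detected on all arrays. ARDS replicate 2 was the highest of them for 84 (56.8%), against 23.8%. Among normal arrays, normal replicate 1 was the lowest for 113 (76.4%, against 41.8%) and normal replicate 2 the highest for 91 (61.5%, against 41.1%). For 66 of the 148 (44.6%, against 11.9%) normal replicate 1 was the lowest normal and ARDS replicate 2 the highest ARDS array, which made them the nearest arrays of opposite groups. On ARDS replicate 1, 145 of the 148 were at least 3-fold below their normal mean. On ARDS replicates 2 and 3 the counts were 91 and 106, and 61 met this on every ARDS array. The rule set the mean of the 3 ARDS arrays at least this far below normal, so nothing is read from these counts. Of all circRNAs detected on the other 5 arrays, 4.27%, 1.15% and 1.81% were this low on ARDS replicates 1, 2 and 3. The share on every ARDS array was not counted over all circRNAs.

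The spread was wider in ARDS than in normal lung. The median SD of the 148 was 0.26 between normal and 0.46 between ARDS arrays, and 112 of them (75.7%) had the larger SD in ARDS. Over all circRNAs detected on all arrays the median SDs were 0.21 and 0.39, and 77.6% had the larger SD in ARDS. The wider spread was thus not particular to the 148. Between the highest and the lowest ARDS array the 148 ranged over 0.16 to 1.99 log2 units, with 59 over more than 1. Between normal arrays the range was 0.05 to 1.79, with 14 over more than 1. Ranges were not counted over all circRNAs, so these 2 counts cannot be called high or low.

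The distance between the groups also varied. The lowest normal value lay between 0.28 and 2.7 log2 units above the highest ARDS value, with a median of 1.24, and for 106 circRNAs it was at least 1. Lying lower on every ARDS array than on any normal array was itself common, at 22.4% of the 11701 circRNAs detected on all arrays, whereas 1.38% were 3-fold lower or more. The smallest distance belonged to the circRNA that also missed the limma threshold. It had scaled values of 0.77, 2.2 and 1.26 on normal and -1.4, 0.49 and 0.15 on ARDS replicates 1 to 3, 3.17-fold lower (log2 -1.66, SE 0.55, limma adjusted p = 0.068). Both of its groups were spread widely, with normal replicate 1 and ARDS replicate 2 only 0.28 apart.

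The limits cut through a continuous range of values. The last circRNA inside, at -1.585, had 2.17, 2.61 and 2.19 on normal and 0.6, 0.95 and 0.67 on ARDS replicates. The first outside, at -1.584, had -0.66, -0.21 and -0.64 on normal and -2.06, -2.09 and -2.12 on ARDS replicates. A single circRNA, 3.06-fold lower, met all conditions except that the groups overlapped, with -0.98, -1.35 and 1.47 on normal and -0.96, -2.57 and -2.17 on ARDS replicates. Another 12 that were lower to this extent were among the 300 brightest. A further 17, 18 and 25 were well above background on all normal arrays but on only 2, 1 or 0 ARDS arrays. Under the same rule with the sign turned, 294 circRNAs were at least 3-fold higher in ARDS lung.

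Each array was also left out of the choice in turn, and the circRNAs chosen by the same rule on the other 5 arrays were then read on it. Left-out arrays fell on the same side for nearly all of them. The arrays of the other group, against which each was read, had a part in the choice. Only the left-out values were free of it, and the shares of all detected circRNAs involve no such choice. Of 111 circRNAs chosen without ARDS replicate 1, 109 lay below all normal arrays on it (98.2%), and of 207 and 206 chosen without ARDS replicates 2 and 3, 203 (98.1%) and 202 (98.1%) did. For all circRNAs detected on the other 5 arrays these shares were 42.1%, 38% and 34.3%. Of 178, 136 and 146 chosen without normal replicates 1, 2 and 3, 174 (97.8%), 136 (100%) and 145 (99.3%) lay above all ARDS arrays on the left-out array, against 29%, 34.2% and 34.6% of all detected.

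The size of the difference on the left-out array depended on the array. On ARDS replicate 1 the median distance from the normal mean was -2.41, larger than the -1.92 on the arrays that chose the circRNAs, and 101 of 111 (91%) were at least 3-fold lower. On ARDS replicates 2 and 3 the median was -1.47 and -1.55, smaller than the -1.91 and -1.88 on the choosing arrays, and 87 of 207 (42%) and 99 of 206 (48.1%) were at least 3-fold lower. The matching shares of all detected circRNAs were 4.27%, 1.15% and 1.81%. On normal replicates 1, 2 and 3 the median distance above the ARDS mean was 1.58, 2.12 and 1.97, and 88 of 178 (49.4%), 111 of 136 (81.6%) and 121 of 146 (82.9%) were at least 3-fold higher than it. Of all detected circRNAs, 1.03%, 2.42% and 1.83% were. These counts come from 1 array each and have no test, and the group mean they are measured from had a part in the choice.

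**Figure D5:**
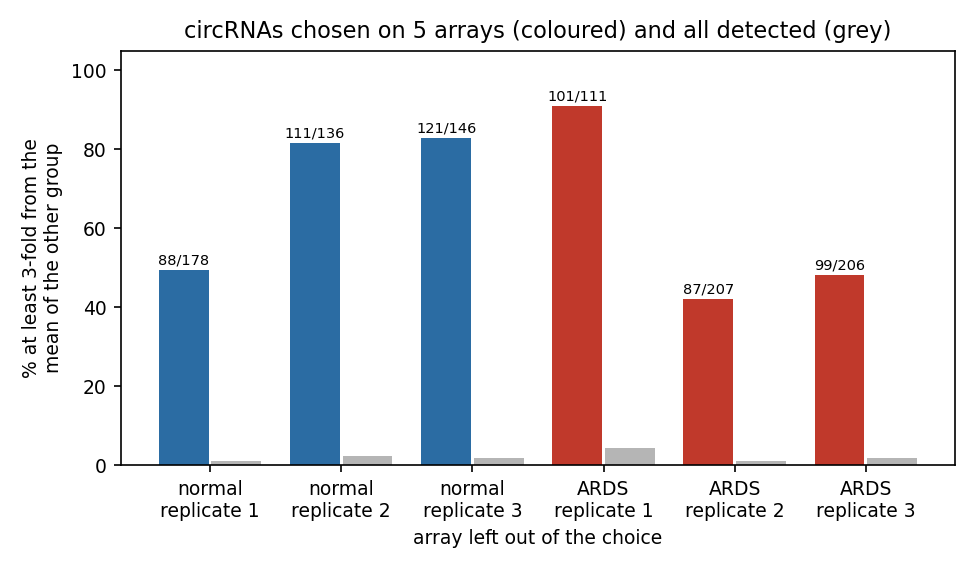
Share of circRNAs (y axis, percent) that were at least 3-fold from the mean of the other group on the array left out of the choice (x axis). Coloured bars are the circRNAs chosen on the other 5 arrays, with their counts above, and grey bars all circRNAs detected on those 5. The coloured bars run from 42% to 91% and the grey bars stay under 5%.

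Detection in ARDS lung was narrow for some of the 148. On ARDS replicates 1, 2 and 3 their median signal was 4.56, 11 and 5.55 times the lowest signal that counted as well above background on that array, and 27, 2 and 17 of them were within 2-fold of it. On the normal arrays the median was 61.9 to 70.2 times that lowest signal and none was within 2-fold. No such count was made over all circRNAs. Values this near to the lowest detected signal may limit how exactly the ARDS level is known. The median ratio of signal to its given error for the 148 was 9.04, 9.83 and 9.36 on ARDS replicates 1 to 3. On normal replicates 1 to 3 it was 9.99, 10 and 10. The dimmest starting point belonged to a circRNA with signals of 66.6, 74 and 68.9 on normal and 5.22, 12 and 9.91 on ARDS replicates, 3.46-fold lower after scaling (limma adjusted p = 0.0207).

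Local background and position on the slide were compared as well, neither being a term of the rule, although the processed signal is corrected for both. Their part in the result was not tested. The mean local background at their spots was 17.9 ± 0.586 on normal and 19.3 ± 4.37 on ARDS arrays (SD, n = 3 each, two-sided exact permutation p = 0.9, where 0.1 is the smallest that 3 against 3 allows). It was 24.3 on ARDS replicate 3, the array with its own scan, and 16.1 to 18.3 on the remaining 5. The difference from all other circRNA spots was 0.0117 ± 0.122 on normal and -0.0741 ± 0.0279 on ARDS arrays (exact permutation p = 0.4). By position, 4 equal bands of rows held 39, 37, 39 and 33 of the 148, and 4 equal bands of columns 32, 32, 46 and 38. The third of these column bands held 31.1% of them and 24.4% of all circRNA probes, the widest departure.

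The authors' deposited table, on a log2 scale, listed all 148 higher in the ARDS columns. Its median difference for them was 1.63, with a range of 1 to 3.37, and the lowest ARDS value was above the highest normal value for 148 of 148. It listed ASCRPR013687 at 5.79, 6.28 and 6.57 in the normal and 9.14, 9.46 and 9.37 in the ARDS columns, a difference of 3.11. It listed ASCRPR000006 at 6.94, 7.4 and 7.16 in the normal and 9.82, 11.34 and 10.47 in the ARDS columns, a difference of 3.37, the largest of the 148. The deviations of each deposited column from its group mean, over the 148, correlated at 0.863 to 0.989 with those of the same-numbered scanner array of the other group, and at -0.192 to 0.196 with those of its own array. The points of these correlations share their arrays, and no p is given. For these circRNAs the columns of the deposited table thus follow the scanner arrays of the other group. The correlations cover the 148 only. Whether the table or the scanner arrays carry the right group labels was not tested, so the direction of the difference rests on the labels of the scanner arrays.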

How the data were processed

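Lung RNA of 6 rats was measured on 1-colour arrays, 3 per group. Per the file headers, the scanner images were quantified by version 11.0.1.1 of Agilent's Feature Extraction. Its processed signal, the deposited intensity used here, has background removed and a spatial trend corrected array by array, with no scaling between arrays. The authors' deposited table holds log2 values (column medians 5.97, 6.04 and 6.03 for normal and 6.5, 6.44 and 6.43 for ARDS replicates 1 to 3). The submitters' processing notes name limma for it. How it was normalized between arrays is not given in the sources used here, and it served only as an alternative.

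Control spots and outlier-flagged spots (1 to 10 circRNA spots per array) were left out, and 0 spots were saturated. Scaled values are log2 processed signals from which the 75th percentile of the circRNA probes of the same array was subtracted. CircRNAs well above background on at least 3 of 6 arrays (13247) were fitted with limma 3.58.1 in R 4.3.3 (lmFit and eBayes, two-sided, Benjamini-Hochberg, threshold 0.05). The procedure was also run on simulated data, where the recovery of 3-fold and 4-fold differences was checked. That simulation had independent noise for each circRNA and no shifts shared over an array, so it does not bear on the dependence on single arrays. Single values per array were compared by exact permutation (scipy 1.17.1). With 3 arrays a group, array number limits the precision throughout.

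The circRNAs, and the rule that names the one with the largest difference and the one with the highest normal level, were chosen with earlier results of these data known. No table used here pairs probe numbers with genes, so the host gene and cell type lists planned for that case were not run. The alternatives were other scalings and background corrections, filters, thresholds, variance models, blocks and each array left out. The normexp correction used the median spot signal, the one the files hold. The deposited table had 0 columns of other samples.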

Additional observations from a re-analysis of the deposited data

How the results depend on the processing

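How many circRNAs met the rule depended on the scaling and the limits: 3532 without scaling, 37 with normexp (offset 50) and quantile normalization (35 of them among the 148), 736 at 2-fold and 64 at 4-fold, against 148, and 111 to 207 when 1 array was left out. The normexp offset exceeds the median ARDS signal of these circRNAs on 2 of the 3 arrays and draws dim values together. Under all other alternatives the number lay between 148 and 208. The median difference of the 148 was -3.17 without scaling, where all circRNAs tested had -1.19, and -1.3 with normexp; it was -1.77 to -2.06 with 1 array left out, and 1.63, reversed, in the deposited table. The count of the 148 past the limma threshold was 0 to 146 with 1 array left out and 142 to 148 otherwise. The count over all circRNAs lower in ARDS, 1081, was 7787 without scaling and 0 to 1562 with 1 array left out. ASCRPR013687 and ASCRPR000006 were at -4.58 and -4.56 without scaling and at -2.53 and -3.04 with normexp, and passed in both. The same-numbered arrays did not pair (correlations of their deviations 0.589, -0.229 and 0.138); with the replicate number as a block 148 of the 148 passed and no count moved by over 1.5 times. The first scan alone is the same 5 arrays as without ARDS replicate 3 (146 passed). A scan block amounts to the same fit (146), because ARDS replicate 3 is the only array of its scan, and is no further check. Depth limits are those of signal over background: 27, 2 and 17 of the 148 lay within 2-fold of the lowest detected signal on ARDS replicates 1 to 3.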

Other observations

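Some of the 148 have probe numbers that follow directly on one another. There were 9 such pairs (18 circRNAs, 12.2%), while distances of 2 to 7 in the numbering gave 1 to 3 pairs each. What the order of the numbers stands for is not given in the sources used here. Within the 9 pairs the differences between ARDS and normal lung were 0.0292 to 0.304 log2 units apart. The rule used this difference and narrows its range, so nothing is read from that closeness. Over all circRNAs detected on all arrays, the difference of neighbours in number correlated only weakly (Pearson's r = 0.056 over 9708 pairs that share all arrays), and at distances of 2 to 7 r was 0.008 to 0.024. The levels of neighbours were alike in some pairs and not in others. One pair was never more than 0.21 apart on any array, with mean normal levels of 1.79 and 1.93, while another had mean normal levels of -0.98 and 3.05.

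Near-equal values on all arrays were not limited to neighbours in number. Among the 10878 pairs of the 148, 9 pairs, holding 16 circRNAs, stayed within 0.25 log2 units of each other on each of the 6 arrays. No such count was made for pairs of other circRNAs, so it cannot be called high or low. Because the files give no sequences or positions, probes for overlapping loops could not be told from probes for separate ones, and the 148 may stand for fewer loci.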
